A study of Mus musculus with 18 samples.

Results

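Accessible chromatin regions that lie between genes, over 1 kb and at most 50 kb from the nearest gene end, were described in splenic B cells and T cells of the mouse. A region was a member when it lay on a nuclear chromosome, overlapped no protein-coding or lncRNA gene body of the gene table and had its nearest gene end in that range. The rule used no measured value. It took 4162 of 27396 regions, or 15.2% of the 27392 nuclear ones. The assay was ATAC-seq, in which a transposase cuts and tags open DNA, run on fresh frozen spleen sections of wild-type C57BL/6J mice. B and T cells were immunostained and taken by laser capture microdissection, while the stained markers, the mouse ages and how many mice were used are not stated in the labels. The 4 groups were B patches (n = 5) and T patches (n = 5), each library from 10 captured areas with about 1000 nuclei in all, and B 100 nuclei (n = 4) and T 100 nuclei (n = 4), captured nucleus by nucleus. All 18 libraries share the genotype and carry no treatment. Libraries of a group were technical replicates per the labels, and none was tied to an animal, so a p-value here speaks only of library-to-library spread, which may be technical, and would be too small for a claim about animals.

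Open chromatin between genes often marks enhancers, stretches of DNA that bind transcription factors and raise the activity of a promoter some distance away. Enhancers are known to differ between cell types more than promoters do, and an enhancer need not act on the gene nearest to it. In lymphocytes such distal elements carry binding sites for lineage factors, for example those that commit a precursor to the B or the T lineage. Each member is named here by the gene with the nearest end, which says where it lies and not what it acts on.

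Members were narrow and spread over the genome. Their median width was 153 bp (quartiles 117 and 233 bp, range 108 to 1269 bp), against 283 bp for the 13600 regions at or within 1 kb of a gene end. The median distance to the nearest gene end was 9.69 kb, with 1180 members at 1 to 5 kb, 957 at 5 to 10 kb, 1072 at 10 to 20 kb and 953 at 20 to 50 kb. The members next to the bounds lay 1006 bp from Platr22 and 49929 bp from D16Ertd472e, and the regions just outside lay 1000 bp from Gm40773 and 50109 bp from Gm42190. The nearest gene was protein-coding for 2462 members and a lncRNA for 1700, with 2833 genes in all. Of the 3255 members whose nearest gene had a known strand, 1631 were upstream and 1624 downstream of it. A single member was found at 1989 genes and 2 or more at 844. Atp6v1g3 and the predicted gene LOC105246083 had 9 members each, Gm33782 and Gm34770 had 8 each and Actr3 had 7.

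A total of 166 members overlapped a gene of another kind, among them 43 pseudogenes, 32 tRNA genes, 11 immunoglobulin or T cell receptor V segments and 5 miRNA genes. No genome sequence was used here, so the miRNAs are the stretches inside members whose letters could be printed. Their mature sequences, from RefSeq on GRCm38.p6, are given 5′ to 3′ with the seed, bases 2 to 8, in capitals.
mmu-miR-8096: gGGCACGGuagcugaagagu
mmu-let-7i-5p: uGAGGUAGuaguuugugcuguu
mmu-let-7i-3p: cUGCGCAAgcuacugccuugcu
mmu-miR-7671-5p: aGGCUCCGcucuggcuagcuucc
mmu-miR-7671-3p: aAGCGGGCaggcggagaaccac
mmu-miR-212-5p: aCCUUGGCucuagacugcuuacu
mmu-miR-212-3p: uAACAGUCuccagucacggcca
mmu-miR-713: uGCACUGAaggcacacagc
No seed was shared between these miRNAs. The let-7i-5p seed is that of the let-7 family, which is known to repress growth and cell cycle genes. The Mir8096 member, chr1:85751544-85752054 (mm10, as are all region coordinates here), lay 14.9 kb from A630001G21Rik. Its normalized CPM, counts scaled to library size with TMM factors, were 44.4, 25.6, 26, 18.6 and 45.3 in B patches, against 80, 99.6, 72.9, 57.1 and 95.6 in T patches. Every T library was above every B library, and the difference passed the test (log2 fold change -1.34 ± 0.35, adjusted p = 0.0433; ± is the SE of every log2 fold change here), although it was lost in each of the 10 fits that left out 1 library. The other miRNA members gave no call. The let-7i member, 5.56 kb from Mon2, averaged 84.8 ± 32.7 in B patches against 93.5 ± 23.2 in T patches (normalized CPM, SD, n = 5 each; log2 fold change -0.14 ± 0.30, adjusted p = 0.952). The Mir7671 member near Irf1 had a log2 fold change of -0.64 (adjusted p = 0.314), the Mir212 member near Ovca2 -0.61 (adjusted p = 0.824) and the Mir713 member near Gm5141 0.88 (adjusted p = 0.621).

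Total counts ran from 2713677 to 6553535 for B patches and from 2193837 to 7343204 for T patches, with B 100 nuclei at 547333 to 720555 and T 100 nuclei at 319481 to 1076765. Reads without stated molecular identifiers are not independent molecules, so intervals and floors cover counting error only. The labelled cell types were checked on all regions assigned to marker genes. Regions of 9 B cell genes such as Cd79a and Ms4a1 took 0.0820% to 0.127% of nuclear counts in B patches, 0.0155% to 0.0264% in T patches, 0.0916% to 0.215% in B 100 nuclei and 0% to 0.0650% in T 100 nuclei. Regions of 11 T cell genes such as Cd3e and Lck took 0.0269% to 0.0370% in B patches and 0.107% to 0.145% in T patches, and 0.0257% to 0.0619% in B 100 nuclei and 0.0850% to 0.167% in T 100 nuclei. Cd4 had no region in the table. Both marker sets were thus highest under their own label, with no overlap between B and T groups of a capture size, and were not at 0 in every library of the other. T libraries 3 and 4 of 100 nuclei stood apart, with reads in 337 to 373 members against 1083 to 1108 in T libraries 1 and 2.

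Members were read less often than regions at gene ends. They were also narrower (median 153 against 283 bp) and had lower median normalized CPM in patches (9.46 against 22.9). The values below are not matched for either. With every library thinned to 241786 nuclear counts, members with at least 1 count made up 73.1% ± 6.5 in B patches against 70.7% ± 7.14 in T patches (SD, n = 5 each), and 23.9% ± 4.1 in B 100 nuclei and 16.9% ± 9.69 in T 100 nuclei (SD, n = 4 each). In patches members lay 14.1 percentage points below gene-end regions, lower in 10 of 10 libraries (two-sided exact permutation test by sign flips, p = 0.00195, adjusted p = 0.0185 over the 14 tests of this kind). At 100 nuclei they lay 16.6 points below, lower in 8 of 8 libraries (exact permutation p = 0.00781, the smallest 8 libraries allow, adjusted p = 0.0185). The share with reads was higher in patches than at 100 nuclei by 49.2 points in B and 53.9 points in T (exact permutation p = 0.00794 each, the smallest 126 splits allow, adjusted p = 0.0185). B and T did not differ by this measure beyond the spread of libraries, with B minus T at 2.34 points in patches (exact permutation p = 0.476) and 7.02 points at 100 nuclei (p = 0.286). The sign turned in patches without T patch 2, to -0.815 points, and at 100 nuclei without T libraries 3 and 4, to -1.36 points.

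**Figure D1:**
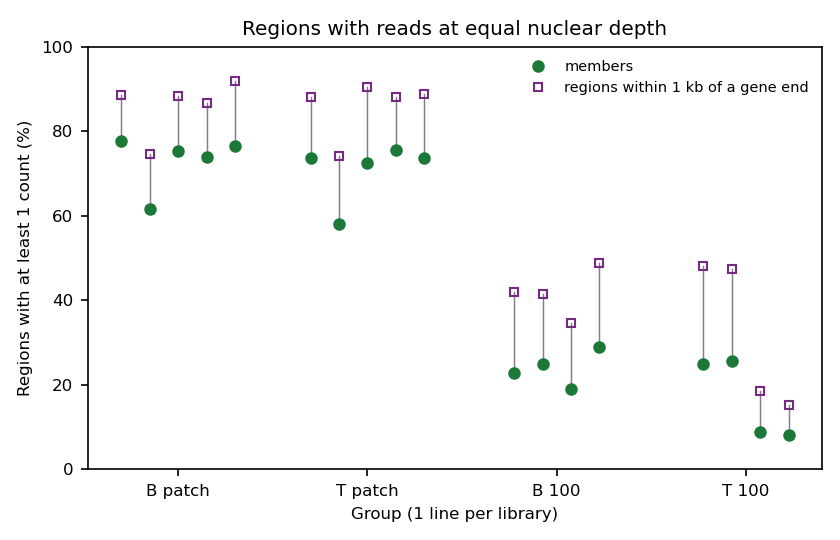
Percent of regions with at least 1 count in each library after thinning to equal nuclear depth; circles are members, squares are regions within 1 kb of a gene end, and each line joins the values of 1 library. Members lie below gene-end regions in all 18 libraries, and both B and T libraries of 100 nuclei lie below the patches.

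Counted reads fell in members in like shares in all groups. Members took 8.24% ± 0.737 of nuclear counts in B patches against 7.75% ± 0.742 in T patches (SD, n = 5 each; exact permutation p = 0.317), and 8.41% ± 0.568 in B 100 nuclei and 8.09% ± 0.563 in T 100 nuclei (SD, n = 4 each; p = 0.457). Patches and 100 nuclei differed by -0.165 points in B (exact permutation p = 0.722) and -0.337 points in T (p = 0.50). None of these passed adjustment, and the smallest p these designs allow is 0.00794 in patches, 0.0286 at 100 nuclei and 0.00794 between capture sizes. The member with the highest mean CPM, 30.8 kb from A830005F24Rik and 1269 bp wide, averaged 278 ± 55.5 in B patches against 267 ± 68.1 in T patches (normalized CPM, SD, n = 5 each), with groups that overlapped. The next ones by mean CPM, near the glucose transporter gene Slc2a3, Midn, the amino acid transporter gene Slc38a2 and Trim55, had log2 fold changes of 0.37, 0.58, 0.1 and -0.15 and no call.

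Comparing B with T in patches asks which stretches of open chromatin differ between the cell types. B patches were higher at 85 members near 82 genes and T patches at 73 members near 67 genes, out of 3762 members with enough reads to be tested (edgeR quasi-likelihood test, Benjamini-Hochberg adjusted p under 0.05 over all tested regions). Of the 4162 members, 400 did not pass the filter on low counts. The 158 called members were 4.20% of those tested, against a background of 2.26% over all 25708 tested nuclear regions. In the B direction members reached 85 of 3762 against a background of 1.21%, and in the T direction 73 of 3762 against 1.05%. The share called was 0.850% of regions at gene ends, 3.49% of regions inside genes and 4.33% of regions beyond 50 kb, so members stood above gene ends and near the other classes, and the difference between classes was not tested. Libraries of B and T did not overlap at 280 members in the B direction and 215 in the T direction, 13.2% of those tested, against a background of 8.03% (4.33% in the B direction and 3.7% in the T direction). The median absolute log2 fold change was 0.91 over tested members, 0.40 over gene-end regions and 0.57 over all nuclear regions.

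The called changes were large. The median log2 fold change was 2.90 over members higher in B and -3.79 over those higher in T, and both stayed so with members at 0 in one group set to a bound from 3 counts over that group. Among called members with more than 3 counts in each group, the range was 1.44 to 5.98 for 82 members higher in B and -6.39 to -1.34 for 63 higher in T. Calls were more frequent among members with more reads, with 0.459%, 1.46%, 2.31% and 11.1% of tested members called from the lowest to the highest quartile group of patch abundance. By distance, 3.95% were called at 1 to 5 kb, 3.25% at 5 to 10 kb, 4.54% at 10 to 20 kb and 5.13% at 20 to 50 kb. Upstream members were called at 5.0% and downstream ones at 3.16%, and these shares were not tested against each other.

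The count of calls depended on single libraries. It was 72, 86, 74 and 97 members without B patch 1, 3, 4 and 5, and 98, 79 and 92 without T patch 1, 3 and 4. Libraries B patch 2 and T patch 2 each moved it by less, to 173 and 177. Without any scaling but library size 68 of 157 calls were higher in B and 89 higher in T. In that scaling the log2 fold changes of members shifted by -0.17 at the median. All 158 members stayed under an unadjusted p of 0.05 whichever library was left out, and 49 of them stayed called throughout. In bulk captures, fewer nuclei of a cell type and less open chromatin per nucleus cannot be told apart.

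**Figure D2:**
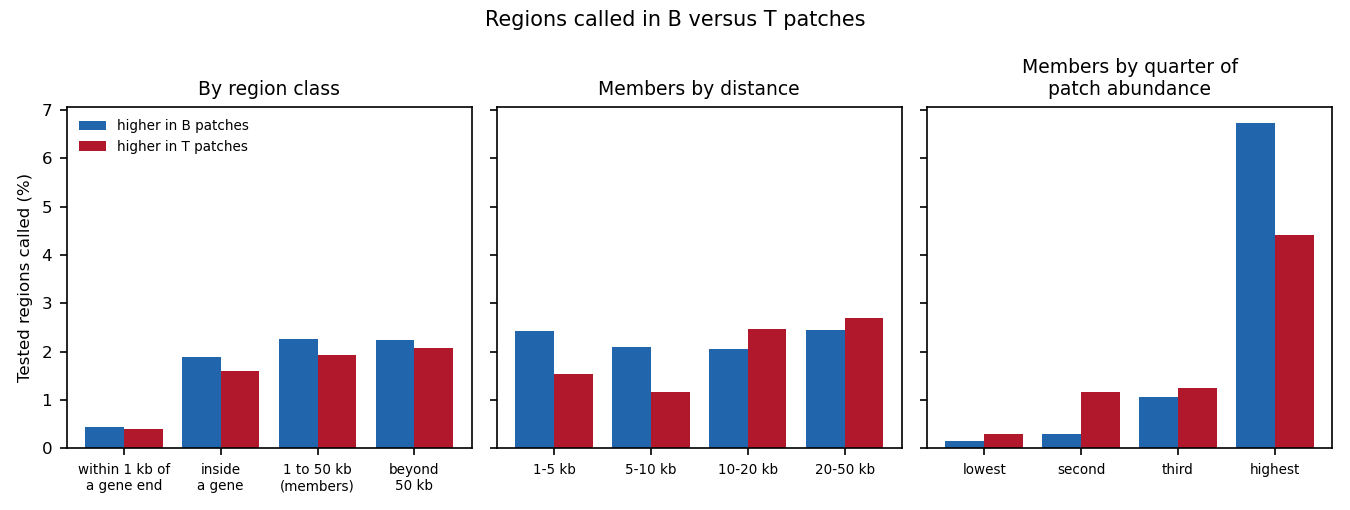
Percent of tested regions called in B versus T patches (edgeR, adjusted p under 0.05), for 4 region classes and for members by distance and in 4 equal groups of abundance; blue bars are regions higher in B patches and red bars higher in T patches. Gene-end regions have the lowest shares of the 4 classes, and the highest abundance group holds most called members.

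Several members near genes of the B cell receptor and its partners were higher in B patches. Of 20 tested members near 13 genes of a B cell identity list, 17 had a positive log2 fold change, with a median of 1.77 against -0.03 over all nuclear regions. Of them 4 were called higher in B and 0 higher in T, against a background of 1.21% in the B direction. Cd79b encodes a signalling chain of the B cell receptor, and its member at chr11:106308276-106308507, 2.83 kb away, had normalized CPM of 109, 31.4, 59.9, 87.7 and 57 in B patches, against 11.9, 1.2, 8.44, 13.5 and 7.96 in T patches. All B libraries were above all T libraries (log2 fold change 2.99 ± 0.53, adjusted p = 0.00566, a call held in 10 of 10 fits that left out 1 library). Tnfrsf13c encodes the receptor for the survival factor BAFF, and its member at chr15:82218877-82219067 had 19.1, 23.7, 22.9, 21.1 and 29.1 in B patches, against 1.01, 0, 0.923, 0 and 0.221 in T patches. T patches were at or near 0 there (log2 fold change 5.57 ± 1.08, adjusted p = 0.00896; call held in 10 of 10).

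Cd180 encodes a Toll-like receptor homologue on B cells, and its member at chr13:102689561-102689709, 3.84 kb upstream, had normalized CPM of 55.9, 47.1, 24.3, 39.7 and 15.9 in B patches, against 0.506, 0, 2.77, 0.249 and 0 in T patches. B libraries varied over a wide range but all exceeded T libraries (log2 fold change 5.47 ± 0.96, adjusted p = 0.00561; call held in 10 of 10). Near Siglecg, which encodes an inhibitory sialic acid receptor of B cells, chr7:43392738-43393036 had 42.1, 19, 14.6, 28.3 and 12.4 in B patches, against 0, 0, 1.45, 0.997 and 0.221 in T patches. The groups were apart (log2 fold change 5.27 ± 1.11, adjusted p = 0.0146; call held in 9 of 10). The member 1.16 kb upstream of Fcmr, the gene of the Fc receptor for IgM, averaged 83.8 ± 21.2 in B patches against 13.7 ± 11.5 in T patches (SD, n = 5 each; log2 fold change 2.60 ± 0.54, adjusted p = 0.0132; call held in 9 of 10). Some called members were near a predicted gene but close to a B cell gene as well, picked after their values were seen. A member 1.21 kb from D7Ertd128e was 7.29 kb from Cd22, another inhibitory receptor, and averaged 60.9 ± 8.25 in B patches against 14.8 ± 8.65 in T patches (SD, n = 5 each; log2 fold change 2.04 ± 0.45, adjusted p = 0.0208; call held in 7 of 10). A member near 2210414B05Rik was 28.7 kb from Lyn, a kinase of B cell receptor signalling, and averaged 57.6 ± 18.9 in B patches against 10.1 ± 6.56 in T patches (SD, n = 5 each; log2 fold change 2.51 ± 0.49, adjusted p = 0.00933; call held in 10 of 10).

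Not every gene of B cells had members of this kind. The member nearest Cxcr5, the receptor that guides B cells into follicles, had normalized CPM of 31.7, 26.3, 31.8, 45.8 and 40.8 in B patches, against 124, 34, 105, 82 and 89.8 in T patches. Its mean was lower in B patches without a call (log2 fold change -1.30 ± 0.35, adjusted p = 0.0529), and the call was made when no scaling but library size was used (adjusted p = 0.0243). Of 13 tested members near 7 genes of B cell receptor signalling, the Cd180 member was the 1 called, against 4.20% of all tested members. Their log2 fold changes were positive for 6 and negative for 7. Members near the plasma cell factor gene Irf4 and the lipid-presenting receptor gene Cd1d1 had log2 fold changes of 3.25 and 3.15 and no call (adjusted p = 0.286 and 0.325), with B libraries above T libraries at both.

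Members beside 4 genes of MHC class II, the proteins that present peptides to CD4 T cells, were higher in B patches. Of 13 tested members near 6 such genes, 12 had a positive log2 fold change, with a median of 2.11. Of them 4 were called higher in B and 0 higher in T, against a background of 1.21% in the B direction. Summed over those members, B patches had 0.0734% to 0.0916% of their nuclear counts there and T patches 0.0181% to 0.0319%, with 0.0525% to 0.145% in B 100 nuclei and 0% to 0.0413% in T 100 nuclei. The called ones stood by H2-Ab1, H2-Aa, H2-Eb1 and H2-Eb2 on chromosome 17. At chr17:34261503-34261857, 1.37 kb from H2-Ab1, normalized CPM were 98.7, 146, 103, 77.8 and 119.6 in B patches, against 23.8, 12.4, 22, 46.1 and 19.2 in T patches. B libraries were all above T libraries (log2 fold change 2.14 ± 0.35, adjusted p = 0.00427; call held in 10 of 10). At chr17:34293617-34293873, 5.79 kb upstream of H2-Aa, they were 101, 92.4, 41.4, 62.1 and 57 in B patches, against 21.5, 1.2, 15.8, 14.7 and 7.96 in T patches, again apart (log2 fold change 2.52 ± 0.53, adjusted p = 0.0146; call held in 9 of 10).

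The member 4.37 kb upstream of H2-Eb1, chr17:34301195-34301493, had normalized CPM of 77.1, 57, 86.4, 73.1 and 84.4 in B patches, against 7.59, 0.4, 9.23, 30.9 and 14.6 in T patches. The lowest B library exceeded the highest T library (log2 fold change 2.58 ± 0.58, adjusted p = 0.0212; call held in 4 of 10). It was also read in every B library of 100 nuclei and in no T library, with 27, 63, 107 and 48 counts in the B libraries of 100 nuclei, against 0, 0, 0 and 0 in the T libraries. The H2-Eb2 member averaged 65 ± 14.7 in B patches against 17.5 ± 10.2 in T patches (SD, n = 5 each; log2 fold change 1.90 ± 0.45, adjusted p = 0.0291; call held in 4 of 10 and lost with library size alone, adjusted p = 0.0555). Cd74, which encodes the invariant chain of MHC class II, had its nearest member at 11.6 kb, with 37.9, 37.6, 52.9, 66.8 and 40.5 in B patches, against 19.7, 0, 13.3, 30.9 and 5.31 in T patches. B libraries were above T libraries without a call (log2 fold change 1.76 ± 0.69, adjusted p = 0.235). The regions at the ends of H2-Ab1, H2-Aa and H2-Eb1 themselves were called as well, with log2 fold changes of 1.37, 2.27 and 2.64. The region at the end of H2-Eb2 had 1.82 without a call. MHC class II is also carried by macrophages, and regions of the macrophage genes Adgre1 and Csf1r took 0.0160% to 0.0255% of nuclear counts in B patches, against 0.00261% to 0.0104% in T patches, while Cd68, Lyz2, Mertk and Spic had no region. Their part in these differences was not tested.

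Promoters of MHC class II genes are known to carry an X box and a Y box, the last an inverted CCAAT sequence bound by NF-Y. The members by H2-Aa and H2-Eb1 and the regions at those gene ends were higher together in B patches. As examples, the 250 bases before the start of each of these genes are shown, from RefSeq on GRCm38.p6. The same held for H2-Ab1, whose promoter was not scanned. Promoters of H2-Eb2 and H2-Ob were scanned, held both strings described next and are not shown. Capitals mark ATTGG, the core of the Y box, and GCAAC, letters within the X box, on either strand.
H2-Eb1 promoter, chr17:34305617-34305866, plus strand: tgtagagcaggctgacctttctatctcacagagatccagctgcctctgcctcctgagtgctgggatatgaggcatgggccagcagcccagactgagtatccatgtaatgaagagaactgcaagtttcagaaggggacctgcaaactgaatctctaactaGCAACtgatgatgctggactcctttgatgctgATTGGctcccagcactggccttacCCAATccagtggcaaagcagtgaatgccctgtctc
H2-Aa promoter, chr17:34287824-34288073, minus strand: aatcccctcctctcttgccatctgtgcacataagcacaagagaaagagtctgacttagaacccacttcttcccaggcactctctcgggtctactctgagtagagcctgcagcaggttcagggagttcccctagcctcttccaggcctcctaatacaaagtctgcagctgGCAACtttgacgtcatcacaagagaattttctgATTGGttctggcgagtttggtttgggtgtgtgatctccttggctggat
The H2-Eb1 window held 1 match to GCAAC and 2 to ATTGG, and the H2-Aa window held 1 of each. Over 32851 promoter windows of the same length, 29.9% held GCAAC, 33.8% held ATTGG and 10.6% held both. A match is a string of letters and not a shown binding site.

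Members within immunoglobulin loci pointed in different directions. Of 13 members inside the lambda light chain locus on chromosome 16, 11 were tested, all with positive log2 fold changes (0.39 to 3.56), and 3 were called higher in B. The background of calls in that direction was 1.21%. Those 3 lay near LOC105246083. The member at chr16:19064485-19064878 had normalized CPM of 78.3, 65.4, 40.6, 51.6 and 37.3 in B patches, against 12.1, 3.6, 0.395, 1.99 and 5.09 in T patches. B and T libraries did not overlap (log2 fold change 3.56 ± 0.67, adjusted p = 0.00783; call held in 10 of 10). The members at chr16:19067064-19067266 and chr16:19052826-19053165 averaged 54.6 ± 12.1 in B patches against 7.75 ± 6.8 in T patches (SD, n = 5 each; log2 fold change 2.81 ± 0.70, adjusted p = 0.0379) and 48.6 ± 14.9 in B patches against 6.44 ± 4.23 in T patches (log2 fold change 2.91 ± 0.70, adjusted p = 0.031). Their calls held in 2 of 10 and 4 of 10 fits that left out 1 library.

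Inside the heavy chain locus on chromosome 12, 8 of 13 members were tested and all 8 were negative (-6.16 to -1.03), with 0 called. Beyond the constant end of that locus the picture was the reverse. Near Tmem121, 33.1 kb and 27.7 kb past the Igha gene, 2 members were called higher in B. The one at chr12:113228270-113228540 had 111, 44.6, 66.8, 107 and 69.7 in B patches, against 13.7, 0, 6.59, 8.23 and 16.2 in T patches. No T library reached a B library (log2 fold change 3.15 ± 0.61, adjusted p = 0.00855; call held in 10 of 10). The one at chr12:113222912-113223065 averaged 53.5 ± 17.8 in B patches against 8.51 ± 6.11 in T patches (SD, n = 5 each; log2 fold change 2.63 ± 0.66, adjusted p = 0.0387; call held in 1 of 10). An enhancer region past the last constant gene is known for this locus in B cells, and whether these members overlap it was not tested. The 3 tested members inside the kappa locus were positive (0.58 to 1.87) and the 4 inside the T cell receptor beta locus negative (-2.37 to -0.08), with 0 called in either.

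Transcription factor and receptor genes had members in both directions. Irf8 encodes a factor of B cells and myeloid cells, and its member at chr8:120725083-120725606, 10.8 kb upstream, had normalized CPM of 129.8, 73.1, 117, 132 and 105 in B patches, against 8.1, 14.8, 13.6, 35.4 and 38.5 in T patches. This was the called member of that list of factors shared by B and T cells. A count of 1 of 18 tested was near the 4.20% called over all tested members. The groups were apart (log2 fold change 2.33 ± 0.40, adjusted p = 0.00479; call held in 10 of 10). Bcl11a encodes a factor needed for B cell development, and its member averaged 60.7 ± 14 in B patches against 10.7 ± 6.53 in T patches (SD, n = 5 each; log2 fold change 2.50 ± 0.65, adjusted p = 0.0436; call held in 2 of 10 and lost with library size alone, adjusted p = 0.0581). The member nearest Ikzf1, which encodes the lymphoid factor Ikaros, averaged 37.7 ± 24.4 in B patches against 5.43 ± 8.02 in T patches with 1 high T library and no call (log2 fold change 2.79 ± 0.88, adjusted p = 0.11). The member 10 kb upstream of Il4ra, the receptor chain for interleukin 4, had 70.7, 99.4, 83.9, 84.1 and 56.7 in B patches, against 30.4, 12.4, 8.96, 14 and 15.5 in T patches. B libraries were all higher (log2 fold change 2.28 ± 0.39, adjusted p = 0.00479; call held in 10 of 10).

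Cxcr4, the receptor for the homing chemokine CXCL12, had 6 tested members of which 2 upstream ones stood on opposite sides. At chr1:128608063-128608350, 15.8 kb upstream, normalized CPM were 71, 38.4, 59.1, 57.2 and 41 in B patches, against 9.11, 30.4, 4.61, 14.7 and 5.75 in T patches. The call was for B (log2 fold change 2.06 ± 0.52, adjusted p = 0.0401), held in 2 of 10 fits that left out 1 library, and was lost with library size alone (adjusted p = 0.0737). At chr1:128602754-128602899, 10.5 kb upstream, they were 9.86, 0, 6.03, 2.24 and 9.09 in B patches, against 33.4, 54.8, 18.8, 36.9 and 16.4 in T patches. There every T library was above every B library without a call (log2 fold change -2.53 ± 0.80, adjusted p = 0.113). Over all 20 tested members of the homing list, 7 were positive and 13 negative, with the 15.8 kb Cxcr4 member the 1 called. That count was near the 4.20% called over all tested members.

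Further members higher in B lay near genes of varied roles. Among members with groups apart, abundance at or above the median and a nearest gene that is not a predicted one, the 10 with the largest fold were those near Tnfrsf13c, Cd180 and Siglecg, given above, and 7 others. Those near Car2 (carbonic anhydrase II), Lrrk2 (a kinase) and St8sia1 (a sialyltransferase) had log2 fold changes of 4.08, 3.86 and 5.01 (adjusted p = 0.00788, 0.0149 and 0.0239). Those near Cemip2 (a hyaluronidase), Mexis (a lncRNA), Scd1 (a fatty acid desaturase) and Atp6v1g3 (a proton pump subunit) had 4.44, 4.28, 4.01 and 3.73 (adjusted p = 0.0467, 0.0379, 0.00829 and 0.0113), and the Cemip2 call was lost with library size alone (adjusted p = 0.0523). The calls near Car2, Scd1 and Atp6v1g3 held in all 10 fits that left out 1 library. Those near Lrrk2 and St8sia1 held in 9 of 10 and 7 of 10, and those near Mexis and Cemip2 in 2 of 10 and 1 of 10. B patch 2 was the highest library near Mexis and Cemip2, and also near St8sia1, Scd1 and Atp6v1g3. The Car2 member at chr3:14880281-14880638 had normalized CPM of 50.9, 49.7, 84.5, 83.9 and 38.5 in B patches, against 6.07, 0, 6.46, 0 and 4.87 in T patches. Those near Cd83, a marker of activated B cells and dendritic cells, and Mpeg1, the gene of perforin-2, averaged 104 ± 46.6 in B patches against 25.8 ± 13 in T patches (log2 fold change 2.01 ± 0.40, adjusted p = 0.0111) and 66.3 ± 17 in B patches against 8.75 ± 5.58 in T patches (log2 fold change 2.90 ± 0.50, adjusted p = 0.00479). Their calls held in 10 of 10 and 10 of 10. Pdcd1lg2, which encodes the PD-1 ligand PD-L2, had a called member 13.7 kb away with 86.3, 24.1, 40.6, 30.5 and 62 in B patches, against 10.4, 1.6, 2.9, 17.5 and 3.32 in T patches. The groups did not overlap (log2 fold change 2.77 ± 0.65, adjusted p = 0.0264; call held in 5 of 10). The Adgre1 member, near a macrophage gene, had 68.3, 78.5, 66, 14.1 and 44.1 in B patches, against 20.5, 8.8, 3.69, 0.249 and 9.96 in T patches. Its groups overlapped, and the call (log2 fold change 2.65 ± 0.70, adjusted p = 0.0467) held in 2 of 10 fits that left out 1 library and was lost with library size alone (adjusted p = 0.0644).

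**Figure D3:**
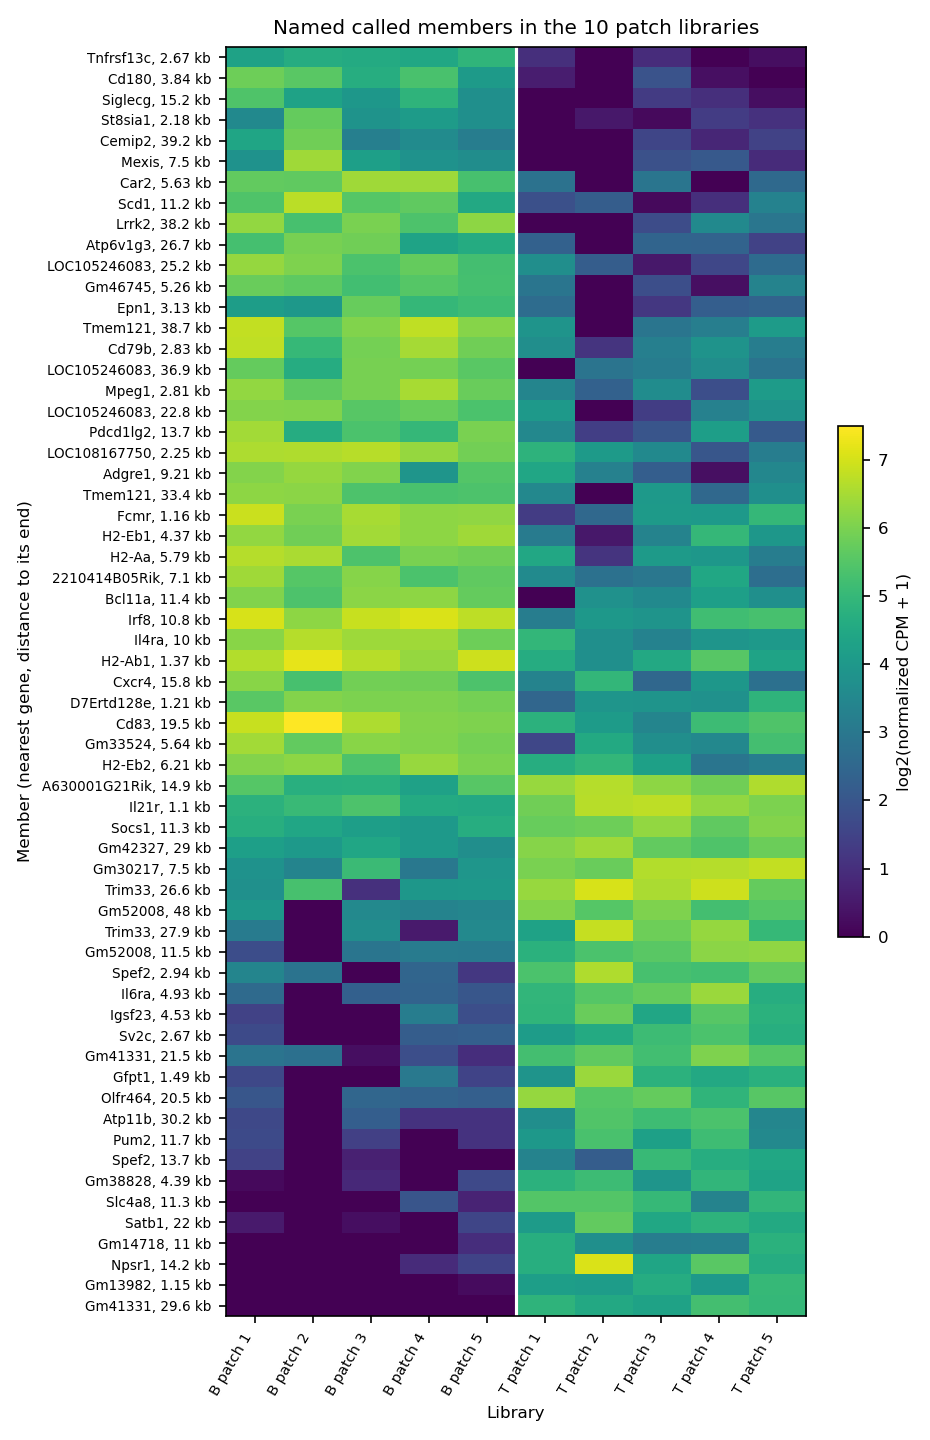
Normalized CPM of 61 called members described in the text, as log2(CPM + 1), in the 10 patch libraries; rows run from the highest to the lowest log2 fold change and carry the nearest gene and the distance to its end, and the white line parts B from T libraries. The upper rows are brighter in the 5 B libraries and the lower rows in the 5 T libraries, and several of the lowest rows are at 0 in most B libraries.

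Few members lay next to genes of the T lineage. Of 10 tested members near 5 genes of a T cell identity list, 6 were negative and 4 positive, with a median of -1.87. Of them 0 were called higher in B and 1 higher in T, against a background of 1.05% in the T direction. Over the 50 tested members within 100 kb of a gene of that list, 18 were positive and 32 negative. There 1 was called higher in B and 5 higher in T, or 12.0% in all. Within 100 kb of a gene of the B cell identity list, 12.9% of 70 tested members were called, 8 higher in B and 1 higher in T. Over all tested members 4.20% were called. Within 100 kb of genes of MHC class II and antigen presentation the share was 15.4%. It was 6.82% for B cell receptor signalling, 9.38% for T cell receptor signalling and costimulation, and 0% for housekeeping genes. These shares were not tested against each other. The called member named after a gene of the list lay 22 kb upstream of Satb1, which encodes a chromatin organizer of thymocytes and T cells. At chr17:51855334-51855525 its normalized CPM were 0.448, 0, 0.208, 0 and 1.98 in B patches, against 16.4, 50.8, 21, 27.4 and 22.6 in T patches. Every B library stayed at or below 1.98 and the groups were apart (log2 fold change -5.54 ± 1.06, adjusted p = 0.00829; call held in 10 of 10). The region at the end of Satb1 with the most reads had a log2 fold change of 0.08 without a call. Upstream of Prkcq, the gene of protein kinase C theta of the T cell receptor pathway, the member at 12 kb had -3.8 without a call (adjusted p = 0.164).

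Some called members named after another gene lay close to T cell genes and were picked after their values were seen. Tcf7 encodes TCF-1, a factor that sets the T lineage, and 16.1 kb from it the Gm30217 member chr11:52299516-52299983 had 13, 9.5, 33.5, 6.95 and 14.2 in B patches, against 61.7, 53.6, 98.3, 99.2 and 109.7 in T patches. T libraries were all higher (log2 fold change -2.45 ± 0.43, adjusted p = 0.00566; call held in 10 of 10). It was also read in all 4 T libraries of 100 nuclei, with 14, 0, 0 and 0 counts in the B libraries of 100 nuclei, against 114, 215, 206 and 184 in the T libraries. Cd8b1 encodes a chain of the CD8 coreceptor, and 15 kb from it the Gm38828 member chr6:71307579-71307818 had 0.149, 0, 0.832, 0 and 2.15 in B patches, against 27.1, 34.4, 14.1, 29.7 and 19.5 in T patches. B libraries were at or near 0 (log2 fold change -5.19 ± 1.10, adjusted p = 0.0155; call held in 10 of 10). Il7r encodes the receptor for the survival factor interleukin 7, and 2 members named after Spef2 were called 44.9 kb and 34.4 kb from it. The first, chr15:9574847-9575257, had 9.56, 6.21, 0, 4.49 and 1.32 in B patches, against 40.5, 95.6, 38.5, 36.4 and 50.7 in T patches. The groups were apart (log2 fold change -3.59 ± 0.76, adjusted p = 0.0147; call held in 10 of 10). The second averaged 0.483 ± 0.78 in B patches against 18 ± 11.5 in T patches (SD, n = 5 each; log2 fold change -5.07 ± 1.34, adjusted p = 0.047; call held in 2 of 10).

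Rasgrp1 encodes an activator of Ras in T cells, and the Gm13982 member 76.0 kb from it, chr2:117418845-117419037, had normalized CPM of 0, 0, 0, 0 and 0.165 in B patches, against 17.2, 16.8, 23.9, 15.7 and 31.4 in T patches. In all 1 count fell there over the B patches and 496 over the T patches. The CPM ratio of T to B was 606, with a 95% exact Poisson interval of 109 to 23924 that covers counting error only (adjusted p = 0.00315; call held in 10 of 10). Cd40lg encodes the ligand by which helper T cells stimulate B cells, and the Gm14718 member 22.5 kb from it had 0, 0, 0, 0 and 0.991 in B patches, against 25.1, 12.4, 8.04, 8.48 and 26.5 in T patches. Signal in B patches came from 1 library (log2 fold change -6.05 ± 1.45, adjusted p = 0.0306; call held in 4 of 10). Runx3 encodes a factor of CD8 T cells, and the Gm42327 member 39.9 kb from it averaged 16.2 ± 3.15 in B patches against 60.3 ± 17.2 in T patches (SD, n = 5 each; log2 fold change -1.89 ± 0.40, adjusted p = 0.0146; call held in 10 of 10).

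In the gene-poor stretch beside Bcl11b, which encodes a factor required for T cell commitment, 2 members near Gm52008 were called, 787 kb and 750 kb from that gene. At chr12:107123652-107123887 normalized CPM were 2.39, 0, 6.45, 7.63 and 7.44 in B patches, against 26.6, 40, 46.7, 71.3 and 75.7 in T patches, and the T libraries were all higher (log2 fold change -3.42 ± 0.69, adjusted p = 0.0113; call held in 10 of 10). The other, chr12:107160109-107160533, averaged 8.81 ± 5.34 in B patches against 52.2 ± 13.5 in T patches (SD, n = 5 each; log2 fold change -2.55 ± 0.65, adjusted p = 0.0401; call held in 2 of 10). A distant enhancer region of Bcl11b is known downstream of the gene in mouse T cell precursors, and whether these members overlap it was not tested.

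Cytokine receptor genes gave calls on both sides. Il6ra encodes the receptor chain for interleukin 6, and its member 4.93 kb downstream, chr3:89864123-89864396, had normalized CPM of 5.08, 0, 3.95, 4.26 and 2.97 in B patches, against 29.4, 44.8, 51.5, 81.8 and 24.6 in T patches. T libraries were all higher (log2 fold change -3.79 ± 0.70, adjusted p = 0.00723; call held in 10 of 10). Il21r encodes the receptor for interleukin 21, and its member averaged 29.2 ± 7.67 in B patches against 81.1 ± 22.2 in T patches (SD, n = 5 each; log2 fold change -1.48 ± 0.34, adjusted p = 0.0235; call held in 6 of 10). With the Il4ra member that makes 1 call for B and 2 for T among 16 tested members near 9 such genes. Over all tested members 4.20% were called. Socs1 encodes an inhibitor of cytokine signalling, and a member 11.3 kb from it averaged 20.5 ± 4.25 in B patches against 60.3 ± 11 in T patches (SD, n = 5 each; log2 fold change -1.55 ± 0.37, adjusted p = 0.0307; call held in 3 of 10).

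Further members higher in T lay near genes of other roles or near predicted genes. Near Trim33, a regulator of TGF-beta signalling, 2 members side by side were called. At chr3:103385335-103385802 normalized CPM were 12.5, 39.1, 1.04, 14.6 and 15 in B patches, against 80, 129, 91.7, 120.2 and 52.2 in T patches. The groups were apart (log2 fold change -2.54 ± 0.55, adjusted p = 0.0175; call held in 7 of 10). The neighbour averaged 6.06 ± 5.53 in B patches against 59.5 ± 37.5 in T patches (log2 fold change -3.26 ± 0.78, adjusted p = 0.0304; call held in 5 of 10). The first of them was read in every T library of 100 nuclei and in no B library, with 0, 0, 0 and 0 counts in the B libraries of 100 nuclei, against 47, 44, 116 and 77 in the T libraries. Near Gm41331 on chromosome 15 a member had 0 counts over the 5 B patches and 598 over the T patches. It was at least 243-fold higher in T, against a floor of 3 counts over the B patches (adjusted p = 0.00162). A second member there averaged 3.19 ± 2.82 in B patches against 46.7 ± 11.7 in T patches (SD, n = 5 each; log2 fold change -3.88 ± 0.71, adjusted p = 0.00683; call held in 10 of 10).

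Among members near genes that are not predicted ones, the Npsr1 member had the lowest log2 fold change of those at or above median abundance with groups apart. It had normalized CPM of 0, 0, 0, 0.897 and 1.82 in B patches, against 24.8, 133, 20, 46.6 and 24.1 in T patches, with 1 T library far above the rest (log2 fold change -6.36 ± 0.99, adjusted p = 0.00315; call held in 10 of 10). The members near Slc4a8 (a bicarbonate transporter), Pum2 (an RNA-binding repressor), Atp11b (a phospholipid flippase) and Olfr464 (an olfactory receptor) had log2 fold changes of -5.4, -4.45, -4.06 and -3.96 (adjusted p = 0.0128, 0.0319, 0.0224 and 0.00468). Those near Gfpt1 (an enzyme of hexosamine synthesis), Sv2c (a vesicle protein) and Igsf23 had -3.91, -3.8 and -3.8 (adjusted p = 0.0394, 0.0438 and 0.0368). B and T libraries were apart at each of these. The calls near Slc4a8 and Olfr464 held in all 10 fits that left out 1 library, the one near Atp11b in 5 of 10, and those near Pum2, Gfpt1, Sv2c and Igsf23 in 2 of 10 each. Regions of the stroma and endothelium markers Pecam1, Cdh5 and Pdgfrb took 0.0101% to 0.0155% of nuclear counts in B patches, against 0.0186% to 0.0302% in T patches, while Ccl19, Col1a1 and Kdr had no region. Their part in the differences was not tested. No member was called near the NK cell genes (6 tested) or T cell effector genes (8 tested). These are too few to set against 4.20% of all tested members. The Klrk1 member, near an NK cell gene, had -2.0 (adjusted p = 0.0695; called with library size alone, adjusted p = 0.0409). The member near the perforin gene Prf1, a T cell effector gene, had -2.82 (adjusted p = 0.0705).

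Of 20 housekeeping genes, which every cell uses, 3 had members. Over the 8 tested members near them, 0 were called, against 4.20% of all tested members. So few members cannot be told from that share. The median log2 fold change was -0.30, with a range of -1.59 to 0.92. The Actb member 12.8 kb away had normalized CPM of 61.7, 11.7, 51.2, 23.6 and 47.9 in B patches, against 85.8, 66.8, 138, 72.8 and 105 in T patches. T libraries were above B libraries without a call (log2 fold change -1.25 ± 0.39, adjusted p = 0.101). The 32 members over tRNA genes ranged from -1.08 to 0.92, with 0 called by edgeR, 0 at an unadjusted p under 0.05 and a median absolute log2 fold change of 0.41. DESeq2 called 0 of them as well, and 32 members are also few to set against 4.20%. The member nearest Ptprc, the gene of the pan-leukocyte protein CD45, had -2.24 without a call (adjusted p = 0.371).

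Members close together tended to differ alike, and so did a member and the gene end beside it, less strongly within 5 kb. Across tested members, the log2 fold change of a member and of the next one correlated at Pearson r = 0.612 over gaps up to 5 kb (n = 709 pairs, 74.3% with the same sign), 0.432 at 5 to 20 kb (n = 540), 0.223 at 20 to 100 kb (n = 628) and 0.0933 at 100 to 1000 kb (n = 1183). Pairs share all libraries, and nearby pairs can be parts of 1 open stretch. With the most abundant region at the end of its nearest gene a member correlated at r = 0.374 (n = 1711). By distance r was 0.458 at 1 to 5 kb, 0.419 at 5 to 10 kb, 0.321 at 10 to 20 kb and 0.303 at 20 to 50 kb. Past 20 kb the r between members, 0.223, was thus not above that with gene ends, though the distance ranges differ. Where both flanking genes had such a region (n = 760), r was 0.369 for the nearer gene and 0.242 for the other. Of 44 called members higher in B with a nearest gene-end region, 33 shared its sign and 4 of those regions were called. The figures were 28, 20 and 2 for members higher in T. Over all tested regions at gene ends, of any abundance, 0.850% were called. How often uncalled members share the sign of that region is not given. Of 8 genes with 2 or more called members, 0 had calls in both directions.

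**Figure D4:**
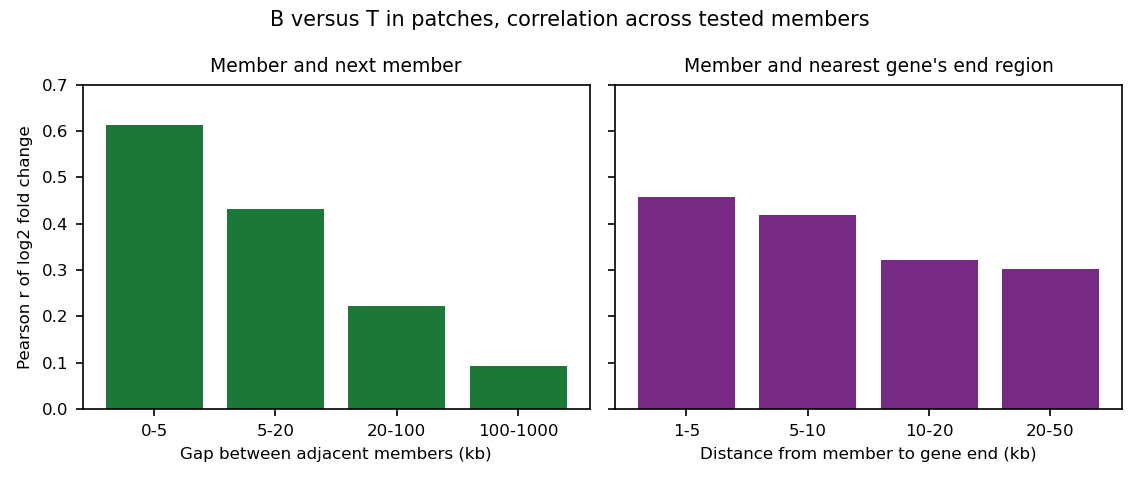
Pearson correlation of the B versus T log2 fold change in patches, on the left between adjacent members by the gap between them and on the right between a member and the region at the end of its nearest gene by distance. The left bars run from 0.612 to 0.0933 and the right bars from 0.458 to 0.303.

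Members set B and T libraries further apart than gene ends did. In patches the mean correlation of log2 CPM over members was 0.526 between libraries of the same cell type and 0.245 between cell types, a difference of 0.280. Over gene-end regions the values were 0.697 and 0.651, a difference of 0.0459. The members' difference exceeded that of gene ends by 0.234. A one-sided exact permutation test over 126 distinct splits gave p = 0.00794, the smallest they can give (adjusted p = 0.0185). It moved the cell type labels for both kinds of region at once, so it asks whether the labels matter at all. It cannot decide whether members and gene ends separate the cell types equally. Within the same range of abundance the members' difference was larger by 0.317, with 0.470 for members and 0.153 for gene ends. That range was set on the mean of the same 10 libraries, which lowers the correlation between cell types where regions differ by cell type. It was -0.176 over members and -0.0131 over gene ends, so the size of this gap cannot be read. Over the same regions the differences at 100 nuclei were 0.0648 and 0.00684. At 100 nuclei the correlations over members were 0.182 and 0.112, a difference of 0.0704, and those over gene ends 0.299 and 0.291, a difference of 0.00794. The gap of 0.0624 had an exact permutation p of 0.0286, the smallest these splits can give, and an adjusted p of 0.05, which is not under the threshold. This test has the same limit.

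At 100 nuclei no member passed the test between B and T fitted on those 8 libraries. edgeR called 0 of 3762 members against a background of 0.0%, with 237 at an unadjusted p under 0.05, and DESeq2 called 0 with 377. A joint edgeR fit of all 18 libraries, which shares 1 estimate of the spread, called 1300 of them against a background of 27.0%. Reads were sparse. Of all members, 1057 (25.4%) had no read in any of the 8 libraries and 13 had reads in all 8. A count of 0 at this depth does not show that the cell types are alike. The difference of the B versus T change between capture sizes was called at 0 members by edgeR (background 0.0%, 1220 at an unadjusted p under 0.05). DESeq2 called it at 504 of 3762 members, near the share over all nuclear regions, 3199 of 25708. Without T library 1 or 2 of 100 nuclei edgeR called 32 and 6 members, against 419 and 97 of all 25708 nuclear regions. Without T libraries 3 and 4 it called 2 members, against 92 of all nuclear regions.

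The members called in patches were then described at 100 nuclei. Those libraries were not in the patch fit, but they did count in the filter that set which regions were tested. The 85 members higher in B took 0.509%, 0.571%, 0.588% and 0.786% of nuclear counts in B 100 nuclei, in rising order, against 0.139% to 0.233% in T 100 nuclei. The 73 members higher in T took 0.0254% to 0.0586% in B 100 nuclei and 0.368% to 0.548% in T 100 nuclei. Neither pair of ranges overlapped. Over the patches those sums were 0.496% to 0.782% for B and 0.0823% to 0.131% for T over the members higher in B. Over the members higher in T they were 0.0432% to 0.0547% for B and 0.314% to 0.542% for T. Fitted changes had the same sign at 100 nuclei as in patches for 79 of the 82 B-high members with any read there and for 56 of the 63 T-high ones. The like share over uncalled members is not given.

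**Figure D5:**
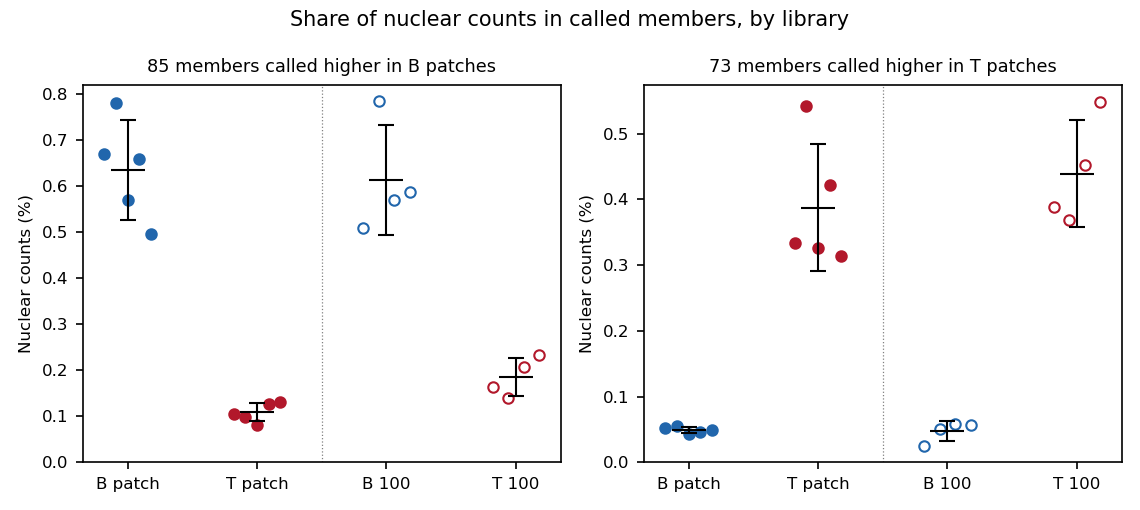
Percent of nuclear counts that fell in the 85 members called higher in B patches and in the 73 called higher in T patches, in each of the 18 libraries; filled points are patches, open points 100 nuclei, blue B and red T, with mean and SD in black. The patch values are those the calls were made on, and at 100 nuclei the B and T libraries do not overlap in either panel.

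Some called members were picked by their reads at 100 nuclei. The rule asked for reads in all 4 libraries of 1 cell type and none of the other, and kept those of smallest patch p. It gave the H2-Eb1 and Trim33 members above and those near LOC108167750, Gm46745, Gm33524 and Adgre1. Their pattern at 100 nuclei is thus the rule itself, and how many other members show it is not given. T libraries 3 and 4 had reads in 373 and 337 members, so counts of 0 there are common. LOC108167750 had 13, 11, 84 and 21 counts in the B libraries of 100 nuclei, against 0, 0, 0 and 0 in the T libraries, and Gm46745 had 1, 164, 47 and 115 counts in the B libraries of 100 nuclei, against 0, 0, 0 and 0 in the T libraries. In patches the first averaged 85.7 ± 17.7 in B patches against 13.1 ± 9.38 in T patches (normalized CPM, SD, n = 5 each; log2 fold change 2.72 ± 0.47, adjusted p = 0.00479; call held in 10 of 10) and the second 44.6 ± 7.42 in B patches against 3.73 ± 4.08 in T patches (log2 fold change 3.55 ± 0.80, adjusted p = 0.022; call held in 7 of 10). The smallest p for B at 100 nuclei were at the Gm46745 member and one near Epn1 (an endocytosis adaptor), and for T at members near Paqr7 (a progesterone receptor) and Gm52008, none under the adjusted threshold. Epn1 had 0, 132, 117 and 78 counts in the B libraries of 100 nuclei, against 0, 0, 0 and 0 in the T libraries. Paqr7 had 1, 0, 0 and 0 counts in the B libraries of 100 nuclei, against 241, 125, 0 and 132 in the T libraries. In patches Epn1 was called higher in B (log2 fold change 3.35 ± 0.84, adjusted p = 0.0392; call held in 2 of 10 and lost with library size alone, adjusted p = 0.0547), while Paqr7 was not called (log2 fold change -1.82 ± 0.65, adjusted p = 0.177).

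Between patches and 100 nuclei of the same cell type many members were called, nearly always as higher in patches. In B 560 of 3762 members were called, near the background of 13.9%. Of these, 557 were higher in patches (background 13.9%) and 3 higher at 100 nuclei (background 0.0117%). In T 1241 of 3762 were called against a background of 28.0%, with 1240 higher in patches (background 28.0%) and 1 higher at 100 nuclei (background 0.0117%). The median log2 fold change was 1.78 in B and 4.24 in T over members, and 1.33 and 2.07 over all nuclear regions. Depth differs with capture size, and its part was not tested. Of all members, 1057 had reads in 0 and 1275 in 1 of the 8 libraries of 100 nuclei. Such members could pass the filter on low counts only with patch libraries, which favours calls for patches. The direction of these counts thus does not show more open chromatin in patches. Members took 8.24% of nuclear counts in B patches and 8.41% in B 100 nuclei. In T these shares were 7.75% and 8.09%. In B the count fell to 0 without B patch 1, 3 or 5, and to 364 with RLE size factors, under which fold changes of members shifted by -0.58 at the median. In T it was 409 without libraries 3 and 4 of 100 nuclei, the pair with the fewest members read.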

How the data were processed

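The authors deposited a table of whole-number read counts per region and library. Per the submitters' processing notes, tools included bcl2fastq 2.20, Trimmomatic 0.36, Bowtie2 2.4.5, Picard, SAMtools 1.14, MACS2 2.2.7.1, deepTools 3.5.2 and R 4.1.0, on mm10. The notes list no order or settings, and no source used here says whether region starts count from 0 or from 1. Regions were set against 34631 protein-coding and lncRNA genes of GRCm38.p6, which shares the mm10 coordinates. The members and lists were chosen with earlier results of these data known.

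Counts were fitted with edgeR 4.0.16 (quasi-likelihood test, TMM factors) on R 4.3.3, each comparison on its own groups. The filter, filterByExpr with a minimum count of 10, ran over the libraries of all groups together. Benjamini-Hochberg adjustment ran over all 25712 tested regions, and a region with adjusted p under 0.05 is referred to as called. Library sizes included 4 mitochondrial regions, which took 16.1% to 45.8% of counts. The fit was tested on simulated counts. DESeq2 1.42.0, other scalings, filters and designs, and each library left out, were alternatives. Exact tests, thinning and correlations (log2 CPM, prior count 2) used Python 3.11.15 with numpy 2.4.6 and pandas 2.3.3. Normalized CPM are counts over TMM-scaled library size, and the number of reads per library limits their precision.

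Named members were the 10 largest and 10 lowest folds among called members at or above median abundance with groups apart and a nearest gene that is not a predicted one. They were also up to 3 of smallest p per list, those nearest fixed lineage genes, the 5 of highest CPM and the 5 genes with most members. Added to these were the 2 of smallest p at 100 nuclei in each direction. The last were calls with reads at 100 nuclei in all 4 libraries of 1 cell type and none of the other, those of smallest patch p. Not each of these is described, and 1 of them is not reported here. The members near miRNAs and predicted genes, and those near H2-Eb2, Bcl11a, Fcmr, Cd83, Mpeg1, Tmem121, D7Ertd128e, Trim33, Spef2, Socs1 and Pdcd1lg2, were chosen after their values were seen.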

Additional observations from a re-analysis of the deposited data

Results flagged for a closer look

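Of 192 groups of 4 or 5 libraries checked, over 5 summary measures and the members described, 18 held a library whose gap to the nearest other was too large a part of the group's range by Dixon's criterion at the 95% level. Chance flags about 1 in 20. Patch library 2 of B or T held 10 of the 18. At equal nuclear depth B patch 2 had reads in 61.7% of members and T patch 2 in 58.1%, each below the other 4 libraries of its group, and T patch 2 had reads in 2762 members at full depth.

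Among members with the higher mean in B patches, in normalized CPM, B patch 2 stood high near St8sia1 (51.9), Cemip2 (57.4) and Mexis (84.0), B patch 5 stood high near Irf4 (22.97), T patch 3 near Cd180 (2.77) and T patch 1 near Ikzf1 (19.5). Among those with the higher mean in T patches, T patch 2 stood high near Npsr1 (133), Gfpt1 (81.6) and Spef2 at 2.94 kb (95.6). Of the B libraries there, B patch 2 stood high near Paqr7 (46.8), B patch 3 near Gm30217 (33.5), B patch 4 near Slc4a8 (2.92), and B patch 5 near Satb1 (1.98), Gm13982 (0.165) and Gm14718 (0.991).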

How the results depend on the processing

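In B versus T patches the 158 called members became 509 with DESeq2 (155 shared), 280 without both libraries numbered 2 (145 shared), 338 with patch libraries thinned (153 shared), 0 in a joint fit of 18 libraries (205 at an unadjusted p under 0.05) and 72 to 177 with 1 library left out. Dropping B patch 1, 3, 4 or 5, or T patch 1, 3 or 4, gave 72 to 98, and dropping another gave 110 to 177. The replicate block gave 65 (64 shared). Same-numbered libraries correlated at -0.00875 to 0.0324, so the numbers were not taken to pair them, and the block gave 0 calls between patches and 100 nuclei in B and in T. RLE factors, library size alone, nuclear regions only, other filters, a 2 kb bound and genes of every biotype gave 141 to 169. For B versus T at 100 nuclei the joint fit called 1300 and the other alternatives 0. Patches versus 100 nuclei in B gave 364 with RLE factors, 0 in the joint fit and 0 to 829 with 1 library left out (0 without B patch 1, 3 or 5). In T they gave 409 without libraries 3 and 4 of 100 nuclei and 814 (without T library 3 of 100 nuclei) to 1407 with 1 left out. Other scalings shifted members' median log2 fold change there by -0.58 (RLE) and -0.33 (library size) in B and by -0.37 and -0.40 in T. The difference of B versus T between capture sizes was called at 504 of 3762 members by DESeq2, against 3199 of 25708 nuclear regions. It was called at 2 members without T libraries 3 and 4 of 100 nuclei. With 1 library left out it was called at 0 to 32 (32 without T library 1 of 100 nuclei). With mitochondrial counts in the total, the member share differed by -0.282 points (B minus T, patches), -0.596 (B minus T, 100 nuclei), 0.897 (patches minus 100 nuclei, B; exact permutation p = 0.0476) and 0.583 (T). With 1 library left out the B capture-size difference ran from -0.400 to 0.102, and in T it was 0.0554 without libraries 3 and 4 of 100 nuclei. Detection in B minus T ran from -0.815 (without T patch 2) to 5.18 points in patches with 1 left out, and was -1.36 at 100 nuclei without T libraries 3 and 4. Without those the separation at 100 nuclei was 0.0749, and 0.0742 above gene ends (exact permutation p = 0.0667, the smallest possible). Of 61 described calls, 28 held whichever library was left out, 54 with library size alone, 60 with DESeq2, 30 with the block and 0 in the joint fit, and none reversed. The uncalled A830005F24Rik member reversed to -0.11 with library size alone, -0.027 in the joint fit, -0.084 thinned and -0.085 to 0.17 with 1 left out. The uncalled Slc38a2 member reversed to -0.060 with library size alone and ran from -0.13 to 0.23. The cause of these changes was not tested.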
